A study of Mus musculus with 12 samples.

Results

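The genes described here are 10 components of the mouse MHC class I antigen presentation pathway, matched by symbol to the 18180 genes measured. They are the class I chains *H2-K1*, *H2-D1* and *H2-T23*, the light chain *B2m*, the transport and loading genes *Tap1*, *Tap2* and *Tapbp*, the immunoproteasome subunits *Psmb8* and *Psmb9*, and the transactivator *Nlrc5*. All 10 were measured.

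Bulk RNA-seq was performed on EGFR+ GBM cells flow sorted from 3 end-stage mouse glioblastomas (GBMs), called tumors 3, 4 and 5. The study's Results describe the sorted cells as negative for the leukocyte antigen CD45. GBMs were induced by stereotactic injection of a Cre lentivirus into the striatum of adult mice that carried, among other alleles, a conditional human *EGFR* transgene, null *Cdkn2a* and a conditional luciferase reporter, on a background mixed from Balb/cJ, SJL, FVBN/J, 129S4 and C57Bl/6J. Cells stained for EGFR with either PDGFR or Galectin-1 were sorted into PDGFRA+, PDGFRA-, GAL1+ and GAL1- populations, so that each tumor gave 4 libraries and the sorts drew on cells of the same tumors. No group received a drug. Each population had 3 libraries, and the 12 libraries held 9851175 to 24117541 reads, as recovered from the deposited values.

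MHC class I molecules display peptides from cytosolic proteins to CD8+ T cells, and some nonclassical chains are ligands of NK cell receptors. Peptides made by the proteasome are carried into the endoplasmic reticulum by the TAP transporter and loaded onto a heavy chain paired with β2-microglobulin, with tapasin holding the chain near TAP. Interferons induce the pathway, and in the brain microglia, macrophages and endothelial cells are known to express it.

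Levels are given as log2 CPM, the log2 of a gene's reads per megaread of the library's size as scaled by TMM. *Pdgfra* was at 10.81, 10.13 and 9.95 in the PDGFRA+ libraries of tumors 3, 4 and 5 and at 10.11, 8.62 and 7.36 in the PDGFRA- libraries. It was higher on the positive side in 3 of 3 tumors, but the libraries overlapped and the difference of 1.60 was not called (limma, adjusted p = 0.249). *Lgals1*, which encodes Galectin-1, was at 6.05, 6.28 and 6.81 in GAL1- cells and at 7.95, 7.64 and 7.41 in GAL1+ cells, without overlap. *Ptprc*, which encodes the leukocyte antigen CD45, was at 3.70, 5.18 and 4.94 in GAL1- cells and at 8.65 ± 0.40 (mean ± SD, n = 3, lowest 8.21) in GAL1+ cells. In PDGFRA+ cells *Ptprc* was at 6.11, 7.33 and 7.31 and in PDGFRA- cells at 7.08, 6.65 and 8.66. It was thus detected in each library and highest in the GAL1+ library of each tumor. The PDGFRA- library of tumor 5 stood apart from the other PDGFRA- libraries: its *Pdgfra* (7.36), mouse *Egfr* (8.16) and *Ptprc* (8.66) values lay within the GAL1+ ranges, and values without it are given where leaving it out changed a call or moved a difference between the PDGFRA populations.

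Between GAL1- and GAL1+ cells 8 of the 10 genes rose and 0 fell (limma with tumor as a block, adjusted p under 0.05 over all genes). Of all genes, 28.9% rose and 29.3% fell. The median log2 fold change was 0.66 over the 10 genes and -0.03 over all genes. After quantile normalization 3 of the 10 were called (*H2-T23*, *B2m* and *Tapbp*), and the median was 0.26 over the 10 and -0.09 over all genes. By that normalization 4631 of all 18180 genes rose and 5616 fell, so the count of 3 lay near the share of all genes. Of the 10, 5 were called without the tumor block, 5 without tumor 4 and 6 in a fit to the libraries compared alone. For *H2-K1*, *H2-D1*, *H2-T23*, *B2m* and *Tapbp* each GAL1+ library lay above each GAL1- library. The share of all genes separated in this way was not computed, so this separation describes these genes only. In bulk libraries fewer cells of a type and less RNA per cell cannot be told apart.

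**Figure D1:**
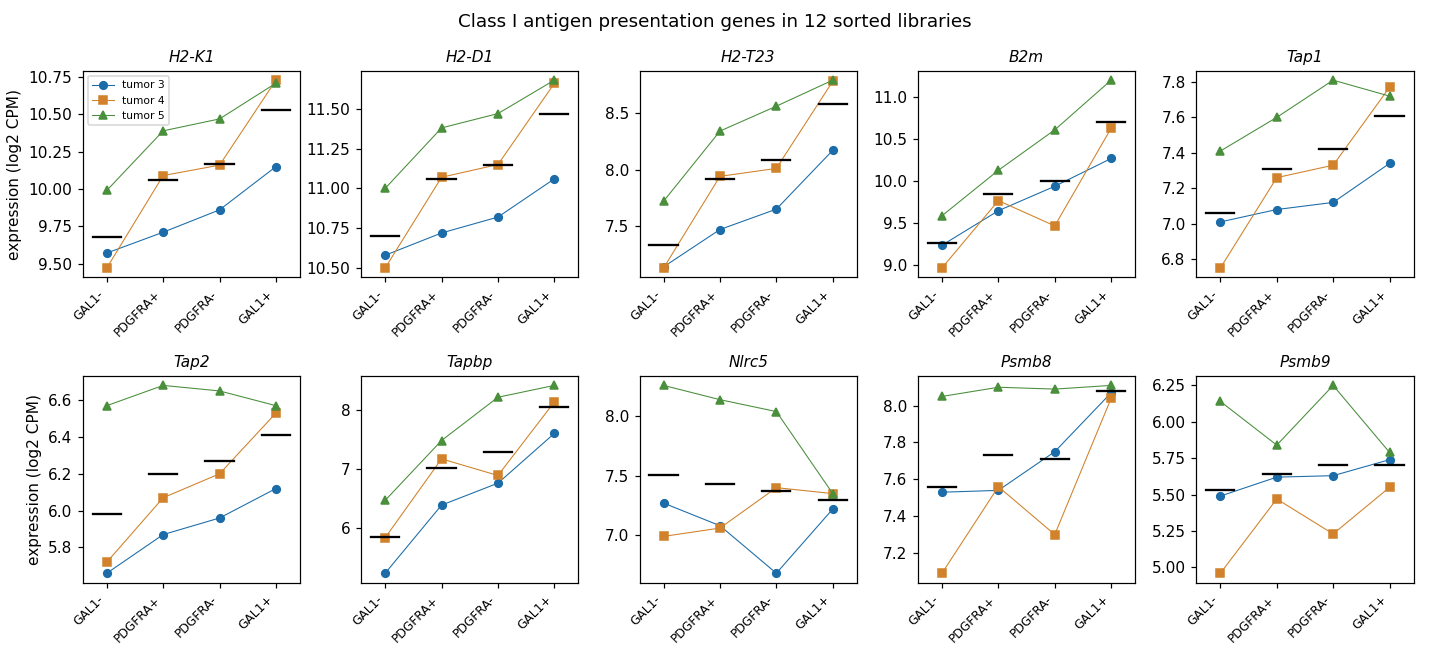
Levels of the 10 genes (y axis, log2 CPM, own scale per gene) in the 4 populations (x axis), with a line per tumor and a black bar at the mean of 3 libraries. *Tapbp* values of GAL1+ cells (7.60 to 8.41) lie above those of GAL1- cells (5.24 to 6.47), and *Nlrc5* values of GAL1+ cells (7.22 to 7.35) lie inside the GAL1- range (6.99 to 8.26).

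*H2-K1* encodes a classical class I heavy chain. It was at 9.57, 9.47 and 9.99 in the GAL1- libraries of tumors 3, 4 and 5 and at 10.15, 10.73 and 10.71 in the GAL1+ libraries. The PDGFRA+ libraries were at 9.71, 10.09 and 10.39 and the PDGFRA- libraries at 9.86, 10.16 and 10.47. In each tumor GAL1- was lowest and GAL1+ highest, while PDGFRA+ and PDGFRA- values overlapped. *H2-K1* rose by 0.85 ± 0.14 (log2, SE, n = 3 tumors), 1.81-fold, from GAL1- to GAL1+ cells in 3 of 3 tumors (adjusted p = 0.000579), and by quantile normalization the difference was 0.22 and not called (adjusted p = 0.224). Here and below, SEs and CIs of differences come from the fit to all 12 libraries. They do not measure the spread of the differences of the 3 tumors.

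*H2-D1* also encodes a classical chain. Its GAL1- values were 10.58, 10.50 and 11.00 and its GAL1+ values 11.06, 11.66 and 11.68. It was at 10.72, 11.07 and 11.38 in PDGFRA+ cells and at 10.82, 11.15 and 11.47 in PDGFRA- cells. Again GAL1- was lowest and GAL1+ highest in each tumor. The difference between GAL1+ and GAL1- cells turned to -0.14 after quantile normalization (adjusted p = 0.464), whereas on the deposited scale *H2-D1* rose by 0.77 ± 0.14 (SE, n = 3), 1.71-fold, in 3 of 3 tumors (adjusted p = 0.00133). By abundance *H2-D1* ranked 17 to 23 in GAL1- and 18 to 25 in GAL1+ libraries, and quantile normalization keeps only such ranks.

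*H2-K1* and *H2-D1* kept a nearly fixed distance. The within-library difference between their log2 values had an SD of 0.036 over 12 libraries, against a median SD of 0.17 over 190 pairs of class I chains. Reads that align to several places were counted as fractions, so similar chains can share reads. Of the 75-base windows in each gene's transcripts, 3.1% for *H2-K1*, 5.4% for *H2-D1* and 5.9% for *H2-T23* also occurred in another gene, against 1.1% for *Tapbp* and 0 for *B2m*, *Tap1*, *Tap2*, *Nlrc5*, *Psmb8* and *Psmb9*. The mice were of mixed strains and class I alleles differ between strains, so levels of single chains are uncertain on a genome of one strain.

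*H2-T23* encodes the nonclassical chain Qa-1, a ligand of NK cell receptors. It was at 7.14, 7.13 and 7.72 in GAL1- cells and at 8.17, 8.78 and 8.79 in GAL1+ cells. PDGFRA+ cells were at 7.47, 7.94 and 8.34 and PDGFRA- cells at 7.65, 8.01 and 8.56. Tumor 5 was highest in each population, and in each tumor the order ran from GAL1- through PDGFRA+ and PDGFRA- to GAL1+. The rise from GAL1- to GAL1+ cells was 1.25 ± 0.14 (SE, n = 3), 2.38-fold, in 3 of 3 tumors (adjusted p = 8.58e-05).

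*B2m* encodes β2-microglobulin, the light chain of class I molecules. Its values were 9.24, 8.97 and 9.59 in GAL1- cells and 10.27, 10.63 and 11.20 in GAL1+ cells. They were 9.65, 9.77 and 10.13 in PDGFRA+ cells and 9.94, 9.47 and 10.61 in PDGFRA- cells. GAL1+ values lay above all GAL1- and PDGFRA+ values, and PDGFRA+ exceeded PDGFRA- in tumor 4 but not in tumors 3 and 5. *B2m* rose by 1.43 ± 0.18 (SE, n = 3), 2.70-fold, from GAL1- to GAL1+ cells in 3 of 3 tumors (adjusted p = 0.00014), and by 0.80 after quantile normalization, still called.

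*Tapbp* encodes tapasin. It was at 5.24, 5.84 and 6.47 in GAL1- cells and at 7.60, 8.13 and 8.41 in GAL1+ cells. PDGFRA+ cells were at 6.39, 7.17 and 7.48 and PDGFRA- cells at 6.76, 6.89 and 8.21. Tumor 3 was lowest and tumor 5 highest in each population, and the PDGFRA- library of tumor 5 reached the GAL1+ range. *Tapbp* rose by 2.20 ± 0.18 (SE, n = 3), 4.59-fold, from GAL1- to GAL1+ cells (adjusted p = 3.93e-05), with differences of 2.36, 2.30 and 1.94 in tumors 3, 4 and 5.

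*Tap1* and *Tap2* encode the subunits of the peptide transporter. *Tap1* was at 7.01, 6.75 and 7.41 in GAL1- cells and at 7.34, 7.77 and 7.72 in GAL1+ cells. Its PDGFRA+ values were 7.08, 7.26 and 7.60 and its PDGFRA- values 7.12, 7.33 and 7.81. The populations overlapped, and the step between GAL1- and GAL1+ cells was widest in tumor 4. *Tap2* was at 5.66, 5.72 and 6.57 in GAL1- cells and at 6.12, 6.53 and 6.57 in GAL1+ cells. It was at 5.87, 6.07 and 6.68 in PDGFRA+ cells and at 5.96, 6.20 and 6.65 in PDGFRA- cells. In tumors 3 and 4 *Tap2* was lowest in GAL1- cells, and in tumor 5 the 4 libraries lay close together. *Tap1* rose by 0.55 ± 0.14 (SE, n = 3, adjusted p = 0.00853) from GAL1- to GAL1+ cells in 3 of 3 tumors, and was not called after quantile normalization (0.30), without tumor 4 (0.32) or without the tumor block (adjusted p = 0.0721). *Tap2* rose by 0.42 ± 0.14 (SE, n = 3, adjusted p = 0.0277), higher in 2 of 3 tumors (0.64 without tumor 5), and was not called after quantile normalization (0.27), without tumor 3 (0.40) or tumor 4 (0.23), without the tumor block (adjusted p = 0.262) or in a fit to the libraries compared alone (adjusted p = 0.0999).

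*Psmb8* and *Psmb9* encode catalytic subunits that replace constitutive ones in the immunoproteasome. *Psmb8* was at 7.53, 7.09 and 8.05 in GAL1- cells and at 8.07, 8.04 and 8.11 in GAL1+ cells. PDGFRA+ cells were at 7.54, 7.56 and 8.10 and PDGFRA- cells at 7.75, 7.30 and 8.09. The tumors spanned 0.96 in GAL1- cells and 0.07 in GAL1+ cells, and the populations overlapped. *Psmb9* was at 5.49, 4.96 and 6.14 in GAL1- cells and at 5.74, 5.55 and 5.79 in GAL1+ cells. Its PDGFRA+ values were 5.62, 5.47 and 5.84 and its PDGFRA- values 5.63, 5.23 and 6.25. Tumor 4 was lowest and tumor 5 highest for *Psmb9* in each population, and all populations overlapped. *Psmb8* rose by 0.52 ± 0.16 (SE, n = 3, adjusted p = 0.0207) from GAL1- to GAL1+ cells in 3 of 3 tumors, and was not called after quantile normalization (0.24), without tumor 3 (0.51) or tumor 4 (0.30), without the tumor block (adjusted p = 0.131) or in a fit to the libraries compared alone (adjusted p = 0.0661). For *Psmb9* the difference was 0.17, with a 95% confidence interval (CI) of -0.23 to 0.57 (adjusted p = 0.447), positive in 2 of 3 tumors.

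*Nlrc5* encodes a transactivator of class I genes. It was at 7.27, 6.99 and 8.26 in GAL1- cells and at 7.22, 7.35 and 7.35 in GAL1+ cells. PDGFRA+ cells were at 7.08, 7.06 and 8.14 and PDGFRA- cells at 6.68, 7.40 and 8.04. Tumor 5 stood above the others in the GAL1- and both PDGFRA populations, and the tumors spanned 1.27 in GAL1- but 0.13 in GAL1+ cells. The difference between GAL1+ and GAL1- cells was -0.20 (95% CI -0.76 to 0.35, adjusted p = 0.503), from -0.06, 0.36 and -0.91 in tumors 3, 4 and 5, and it was 0.15 without tumor 5. Reads per library were fewest for *Psmb9*, at 356 to 1739.

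Between PDGFRA+ and PDGFRA- cells no difference was detectable for these genes. With limma 0 of the 10 genes and 0 of all genes were called (0% higher and 0% lower), while at an unadjusted p under 0.05 the counts were 0 of the 10 and 2137 of all genes. The 13 other settings run, including the one without the PDGFRA- library of tumor 5, also called 0. The log2 differences ran from -0.28 for *Tapbp* (95% CI -0.69 to 0.13) to 0.06 for *Nlrc5* (95% CI -0.50 to 0.61). Without the PDGFRA- library of tumor 5 they were -0.06 for *Tapbp* and 0.14 for *Nlrc5*, *B2m* went from -0.15 to -0.03 and *Psmb9* from -0.06 to 0.06. *Tapbp* differed by -0.37, 0.27 and -0.73 in tumors 3, 4 and 5, and *B2m* by -0.28, 0.31 and -0.48. Both were higher in PDGFRA+ cells in tumor 4 and lower in tumors 3 and 5. The summed level of 12 leukocyte genes moved in the same direction, at 663, 1604 and 1562 CPM in PDGFRA+ and 1176, 750 and 3271 CPM in PDGFRA- cells, and its part in the result was not tested. By quantile normalization the log2 differences of *H2-K1* (0.07), *H2-D1* (0.13) and *B2m* (0.06) turned above 0. The median of the 10 moved from -0.09 to 0.02.

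The change across the GAL1 sort was set against the change across the PDGFRA sort by a test of their difference. It was above 0 for 6 of the 10 genes and below 0 for none, against 26.2% and 24.9% of all genes. Across the PDGFRA sort itself 0 of all genes were called. The test shares its GAL1 libraries with the comparison of GAL1+ and GAL1- cells and is not independent of it. The difference was 2.47 ± 0.26 (SE, n = 3) for *Tapbp* (adjusted p = 0.000275), 1.59 ± 0.25 for *B2m* (adjusted p = 0.000802) and 1.41 ± 0.20 for *H2-T23* (adjusted p = 0.000479). It was 0.96 for *H2-K1*, 0.66 for *Tap1* and 0.86 for *H2-D1*, which turned to -0.27 after quantile normalization. These 6 differences were above 0 in 3 of 3 tumors. *Tap2* (0.49), *Psmb8* (0.49), *Psmb9* (0.23) and *Nlrc5* (-0.26) were not called. Without the tumor block or after quantile normalization 3 genes were called, *H2-T23*, *B2m* and *Tapbp*. By quantile normalization 4176 of all 18180 genes were above 0 and 4812 below 0. After quantile normalization *B2m* was at 0.74 and *H2-K1* at 0.15 (adjusted p = 0.57), and *H2-K1* had an adjusted p of 0.0502 without the block. *Tap1* was not called without tumor 3 (adjusted p = 0.0687), tumor 4 (0.44, adjusted p = 0.133), tumor 5 (adjusted p = 0.0709) or the PDGFRA- library of tumor 5 (0.59, adjusted p = 0.0513), and *H2-D1* was not without tumor 4 (adjusted p = 0.0588) or tumor 5 (adjusted p = 0.0533). *Tap2* was called without tumor 5 (0.75, adjusted p = 0.028) and after centring on the median (adjusted p = 0.0365). The counts were thus 5, 4 and 5 without tumors 3, 4 and 5. By the same test 12 of 12 leukocyte genes (median 4.80) and 10 of 10 macrophage genes (6.00) were above 0 and 8 of 10 glial genes (-2.75) below 0. Of 10 T and NK cell genes 1 was called above 0 and 0 below 0 (median 0.04). The part of these markers in the result was not tested.

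**Figure D2:**
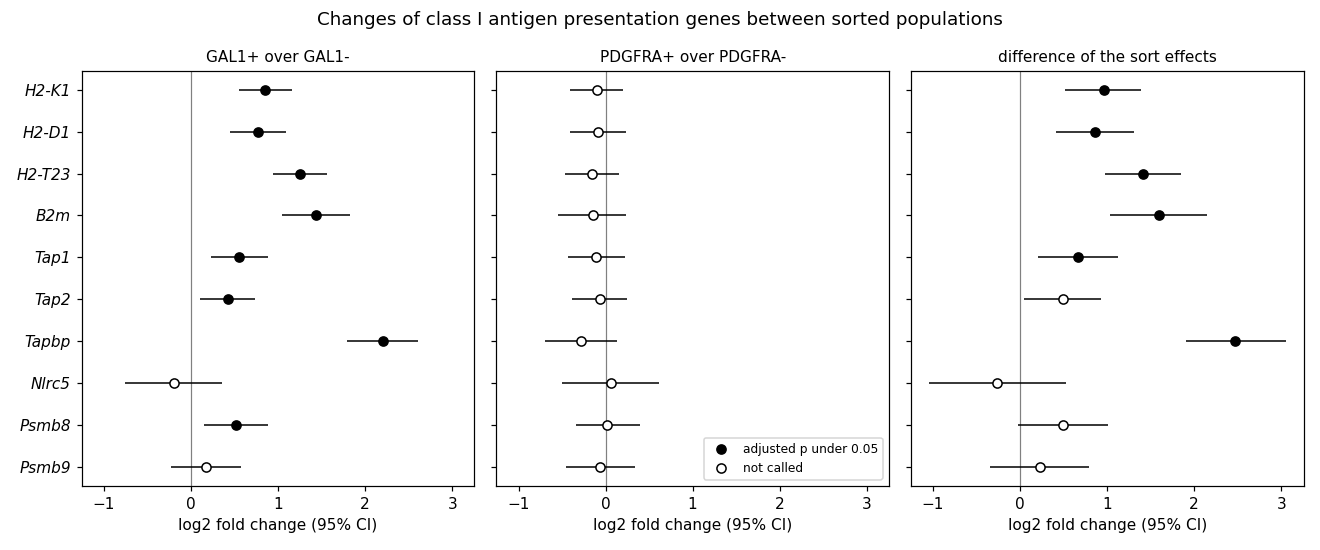
Log2 fold changes (x axis) of the 10 genes (y axis) for GAL1+ over GAL1- cells, PDGFRA+ over PDGFRA- cells and the difference of these, with 95% CIs and filled points for an adjusted p under 0.05 (limma). In the GAL1 sort the points reach 2.20 for *Tapbp*, and in the PDGFRA sort they lie from -0.28 to 0.06; *H2-D1* is at -0.14 in the GAL1 sort after quantile normalization.

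Populations of different sorts were also compared, and these comparisons share libraries with those above. From GAL1+ to PDGFRA+ cells 5 of the 10 genes fell and 0 rose, against 17.0% and 20.9% of all genes. *Tapbp* fell by 1.04 ± 0.18 (SE, n = 3, adjusted p = 0.0032), *B2m* fell by 0.85 (adjusted p = 0.00638) and *H2-T23* fell by 0.66 (adjusted p = 0.00638). *H2-K1* (-0.47, adjusted p = 0.0249) and *H2-D1* (-0.41, adjusted p = 0.0479) were also called, and after quantile normalization they were at 0.03 and 0.20. By that normalization *B2m* was at -0.33 and not called (adjusted p = 0.157), and the 2 still called were *H2-T23* (-0.42) and *Tapbp*. Of all 18180 genes 3460 then rose and 3386 fell. Without the tumor block 0 were called, *H2-D1* was not without a mean-variance trend (adjusted p = 0.057) or with a pseudocount of 2 reads (adjusted p = 0.0501), and without tumor 3, 4 or 5 the counts were 1, 3 and 2. Centring on the median gave 7, with *Tap1* (-0.46, adjusted p = 0.0388) and *Psmb8* (-0.50, adjusted p = 0.0274) gained. In the same comparison 11 of 12 leukocyte genes (median -1.57) and 10 of 10 macrophage genes (-1.83) fell. Of 10 T and NK cell genes 1 rose and 1 fell (median 0.68), and of 10 endothelial genes 1 fell and 0 rose (median -0.61). Glial genes rose in 8 of 10 cases (median 2), and the part of these markers in the result was not tested.

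From GAL1+ to PDGFRA- cells 3 of the 10 genes fell and 0 rose, against 6.91% and 13.2% of all genes. They were *Tapbp* (-0.76, adjusted p = 0.0226), *B2m* (-0.70, adjusted p = 0.0269) and *H2-T23* (-0.51, adjusted p = 0.0335). These 3 were called without the PDGFRA- library of tumor 5 too, whereas 0 were without the tumor block, 0 in a fit to the libraries compared alone, 0 after quantile normalization, 0 without tumor 3 and 0 without tumor 4. After centring on the median 5 were called. Without tumor 5 *B2m* was not called (adjusted p = 0.0601), and without a mean-variance trend *H2-T23* was not (adjusted p = 0.0596), which left 2 each. In the same comparison 2 of 12 leukocyte genes (median -1.21) and 5 of 10 macrophage genes (-1.45) fell. Of 10 T and NK cell genes 3 rose and 0 fell (median 1.03), and of 10 endothelial genes 0 were called (median -0.63). Glial genes rose in 7 of 10 cases (median 1.61), and the part of these markers in the result was not tested.

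From GAL1- to PDGFRA+ cells 2 of the 10 genes rose and 0 fell, against 8.26% and 0.0110% of all genes. *Tapbp* rose by 1.16 ± 0.18 (SE, n = 3, adjusted p = 0.00406) and *H2-T23* by 0.58 ± 0.14 (adjusted p = 0.0285), each in 3 of 3 tumors. The count was 0 without the tumor block, 0 without tumor 3, and 1 without tumor 4 or tumor 5. Without a mean-variance trend (adjusted p = 0.0639) or after centring on the median (adjusted p = 0.104) *H2-T23* was not called, which left 1, and the count was 4 in a fit to the libraries compared alone. In the same comparison 12 of 12 leukocyte (median 2.81), 10 of 10 macrophage (4.1) and 10 of 10 endothelial genes (2.12) rose. Of 10 glial genes 0 were called (median -0.37), and the part of these markers in the result was not tested.

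From GAL1- to PDGFRA- cells 5 of the 10 genes rose and 0 fell, against 16.2% and 6.88% of all genes. *Tapbp* rose by 1.44 ± 0.18 (SE, n = 3, adjusted p = 0.00104), *H2-T23* by 0.74 (adjusted p = 0.00531), *B2m* by 0.74 (adjusted p = 0.0173) and *H2-K1* by 0.49 (adjusted p = 0.0314). *H2-D1*, at -0.07 after quantile normalization, rose by 0.45 on the deposited scale (adjusted p = 0.0479), and was not called without a mean-variance trend (adjusted p = 0.0607). After quantile normalization *H2-K1* (0.18, adjusted p = 0.379) and *B2m* (0.40, adjusted p = 0.114) were not called, and 2 were, *H2-T23* and *Tapbp*. Of all 18180 genes 2251 then rose and 2514 fell. Without the PDGFRA- library of tumor 5 the count was 2, *H2-T23* and *Tapbp*. It was 0 without the tumor block, 1 in a fit to the libraries compared alone, 3 after centring on the median, and 2, 3 and 1 without tumors 3, 4 and 5. In the same comparison 12 of 12 leukocyte genes (median 3.14) and 10 of 10 macrophage genes (4.27) rose. Glial genes fell in 3 of 10 cases (median -0.77), and the part of these markers in the result was not tested.

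The mean levels of 7 genes (*H2-K1*, *H2-D1*, *H2-T23*, *B2m*, *Tap1*, *Tap2* and *Tapbp*) ran from GAL1- through PDGFRA+ and PDGFRA- to GAL1+ cells. PDGFRA+ and PDGFRA-, the neighbours in the middle, were called different for 0 of the 7. Without the PDGFRA- library of tumor 5 the difference between these neighbours lay between -0.09 (*H2-T23*) and -0.03 (*B2m*) for the 7. By quantile normalization it turned to 0.07 for *H2-K1*, 0.13 for *H2-D1* and 0.06 for *B2m*, so the order of these genes changed. *H2-D1* was then also lower in GAL1+ than in GAL1- cells (-0.14). The steps below are on the deposited scale. For *Tapbp* and *H2-T23* both outer steps were called, and for *B2m* the step from PDGFRA- to GAL1+ was (adjusted p = 0.0269) while that from GAL1- to PDGFRA+ was not (adjusted p = 0.0837). No step between neighbours was called for *H2-K1*, *H2-D1*, *Tap1* and *Tap2*. *Psmb8* had PDGFRA- below PDGFRA+ cells, and *Psmb9* means spanned 0.18 and *Nlrc5* means 0.20, with no neighbours called different.

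Further pathway genes were read from lists, here for GAL1+ over GAL1- cells, where 28.9% of all genes rose and 29.3% fell. Of 21 other class I chains 17 were measured, of which 14 rose and 0 fell (median 0.73), from *H2-M2* (3.11) and *H2-T24* (2.46) at the top to *H2-T22* (0.03) and *H2-M5* (-0.20) at the bottom. *H2-Q4*, the most abundant, was at 0.38 (adjusted p = 0.0572), and *H2-M2* had as few as 5.7 reads in a GAL1- library. *H2-T24* was at 2.39, 3.35 and 3.22 in GAL1- and at 5.08, 6.05 and 5.20 in GAL1+ cells, without overlap (adjusted p = 6.29e-05). Of 7 class I-like genes 5 were measured: *Fcgrt*, the neonatal Fc receptor and most abundant, rose by 4.05, *Procr* by 4.01, *Hfe* by 3.58 and *Mr1* by 2.23, while *Cd1d1*, which presents lipids, fell by 1.02 (adjusted p = 0.0118).

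Of 8 further loading and folding genes of the endoplasmic reticulum 7 rose and 0 fell (median 0.85; 4 rose, with a median of 0.30, after quantile normalization), from *Erap1* (1.27) and *Tapbpl* (1.25) at the top to *Uggt1* (0.44) and *Ganab* (0.07) at the bottom. *Calr*, the most abundant, rose by 0.74. *Erap1*, which trims peptides, was at 5.28, 5.26 and 5.82 in GAL1- and at 6.55, 6.63 and 6.99 in GAL1+ cells, without overlap.

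The other inducible proteasome genes rose in 4 of 4 cases (median 1.51): the activator genes *Psme1* (1.92, the most abundant), *Psme2b* (1.59) and *Psme2* (1.44) and the catalytic subunit *Psmb10* (0.88). Of 17 constitutive proteasome genes 9 rose and 0 fell (median 0.34; 4 rose, with a median of 0.17, after quantile normalization), from *Psma1* (0.93) and *Psmb6* (0.78) at the top to *Psme3* (-0.10) and *Psmb5* (-0.15) at the bottom. *Psme4*, the most abundant, was at 0.34 (adjusted p = 0.0534). Inducible subunits were also set against the constitutive subunits they replace, within each tumor. From GAL1- to GAL1+ cells the log2 ratio of *Psmb8* to *Psmb5* differed by 0.47, 1.05 and 0.49 in tumors 3, 4 and 5, and that of *Psmb10* to *Psmb7* by 0.95, 1.19 and 0.04. For *Psmb9* to *Psmb6* the differences were -0.42, -0.32 and -1.11. The *Psmb8* and *Psmb10* ratios were thus higher and the *Psmb9* ratio lower in GAL1+ cells of each tumor, and these ratios were not tested.

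Of 8 factors that bind MHC promoters 2 rose and 2 fell (median -0.01, -0.09 after quantile normalization; 1 fell after centring), from *Nfya* (1.21) and *Atf1* (1.19) at the top to *Nfyb* (-0.33) and *Nfyc* (-0.40) at the bottom, and *Creb1*, the most abundant, was at 0.01. Of 13 interferon signaling genes 9 rose and 0 fell (median 0.77), from *Ifngr1* (2.23) and *Ifngr2* (2.02) at the top to *Irf1* (0.21) and *Stat2* (0.08) at the bottom.

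Markers of other cell types moved with the GAL1 sort. All 12 leukocyte genes rose (median 4.40, most abundant *Lcp1* at 4.29), from *Laptm5* (4.99) and *Itgb2* (4.98) at the top to *Coro1a* (3.80) and *Arhgap30* (3.77) at the bottom. Their summed level was 86.1, 240 and 195 CPM in the GAL1- libraries and 2942, 3615 and 4090 CPM in the GAL1+ libraries of tumors 3, 4 and 5. All 10 macrophage genes rose (median 5.81, most abundant *Csf1r* at 5.40), from *F13a1* (7.67) and *Mrc1* (7.10) at the top to *Tgfbi* (4.88) and *Ccr2* (4.18) at the bottom. Macrophage sums were 43.4, 131 and 126 CPM in GAL1-, 745, 1632 and 1719 CPM in PDGFRA+, 1294, 743 and 3708 CPM in PDGFRA- and 3718, 4033 and 4550 CPM in GAL1+ cells. Both sums were lowest in GAL1- and highest in GAL1+ cells of each tumor, as were the levels of *H2-K1*, *H2-D1*, *H2-T23*, *B2m* and *Tapbp*, and their part in the result was not tested. All 10 microglia genes rose (median 4.61), from *Fcrls* (6.12) and *P2ry13* (5.62) at the top to *Olfml3* (3.32) and *Sall1* (0.66) at the bottom. Microglia sums were 83.0, 153 and 100 CPM in GAL1-, 429, 1151 and 822 CPM in PDGFRA+, 588, 327 and 1269 CPM in PDGFRA- and 1832, 2520 and 2246 CPM in GAL1+ cells. *Fcrls* was at or under 3 reads in a GAL1- library, and no leukocyte or macrophage gene was in any library.

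All 7 class II genes rose (median 3.60), from *Cd74* (4.34) and *H2-DMb1* (3.99) at the top to *H2-DMa* (2.44) and *Ciita* (2.33) at the bottom. *Cd74*, the most abundant, was at 7.23, 8.93 and 8.90 in GAL1- and at 11.74, 12.86 and 13.48 in GAL1+ cells, without overlap. Class II sums were 463, 1054 and 1332 CPM in GAL1- and 6549, 14118 and 23452 CPM in GAL1+ cells. All 10 endothelial genes rose (median 2.73, most abundant *Flt1*), from *Ly6a* (3.84) and *Emcn* (3.51) at the top to *Flt1* (2.24) and *Kdr* (2.03) at the bottom. Their sums were 63.4, 88.2 and 43.1 CPM in GAL1- and 363, 404 and 354 CPM in GAL1+ cells, with *Emcn* at or under 3 reads in a GAL1- library. All 6 mural genes rose (median 2.60, most abundant *Rgs5* at 2.70), from *Vtn* (2.91) and *Abcc9* (2.79) at the top to *Kcnj8* (2.44) and *Higd1b* (2.36) at the bottom. Their sums were 29.0, 38.1 and 18.9 CPM in GAL1- and 171, 234 and 138 CPM in GAL1+ cells, with *Higd1b* at or under 3 reads in a GAL1- library.

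Of 12 T and NK cell genes 10 were measured, of which 1 rose and 1 fell (median -0.16, but -0.48 with 2 lower after quantile normalization, most abundant *Klrb1c*), from *Klrb1c* (2.89) and *Cd3e* (0.23) at the top to *Cd3g* (-0.76) and *Lck* (-1.10) at the bottom. Their sums were 10.1, 29.0 and 27.6 CPM in GAL1- and 20.2, 23.2 and 42.2 CPM in GAL1+ cells, with *Cd3d* at or under 3 reads in a GAL1+ library. Of 7 dendritic cell genes 5 were measured, of which 3 rose (median 0.84), *Itgax* (the most abundant) by 4.60, *Ccr7* by 0.95 and *Zbtb46* by 0.84, while *Xcr1* (0.64) and *Flt3* (-0.29) were not called, with sums of 19.0, 50.1 and 50.8 CPM in GAL1- and 241, 407 and 637 CPM in GAL1+ cells. Of 7 neutrophil genes 5 were measured, of which 3 rose (median 1.52), *Csf3r* (the most abundant) by 3.84, *Mmp8* by 3.07 and *Cxcr2* by 1.52, while *S100a9* (0.31) and *S100a8* (-0.03) were not called, with sums of 16.5, 21.2 and 40.5 CPM in GAL1- and 101, 183 and 166 CPM in GAL1+ cells, and *Mmp8* was at or under 3 reads in a GAL1- library. Of 5 B cell genes 1 was measured, *Ighm*, which rose by 3.35 with sums of 0.36, 1.55 and 1.25 CPM in GAL1- and 7.32, 11.9 and 8.51 CPM in GAL1+ cells.

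Of 10 glial genes, which GBM cells express, 0 rose and 9 fell from GAL1- to GAL1+ cells (median -2.42, most abundant *Ptprz1* at -2.48), from *Gfap* (-0.35) and *Nes* (-0.92) at the top to *Olig1* (-2.97) and *Sox8* (-2.99) at the bottom. Their sums were 5377, 4648 and 5281 CPM in GAL1-, 5021, 3635 and 3633 CPM in PDGFRA+, 3859, 3608 and 1419 CPM in PDGFRA- and 1837, 1253 and 675 CPM in GAL1+ cells. GAL1- libraries thus had the highest glial and the lowest leukocyte sum of each tumor, and the 10 class I genes summed to 3634, 3317 and 5048 CPM in them and to 5688, 8030 and 8891 CPM in GAL1+ cells.

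**Figure D3:**
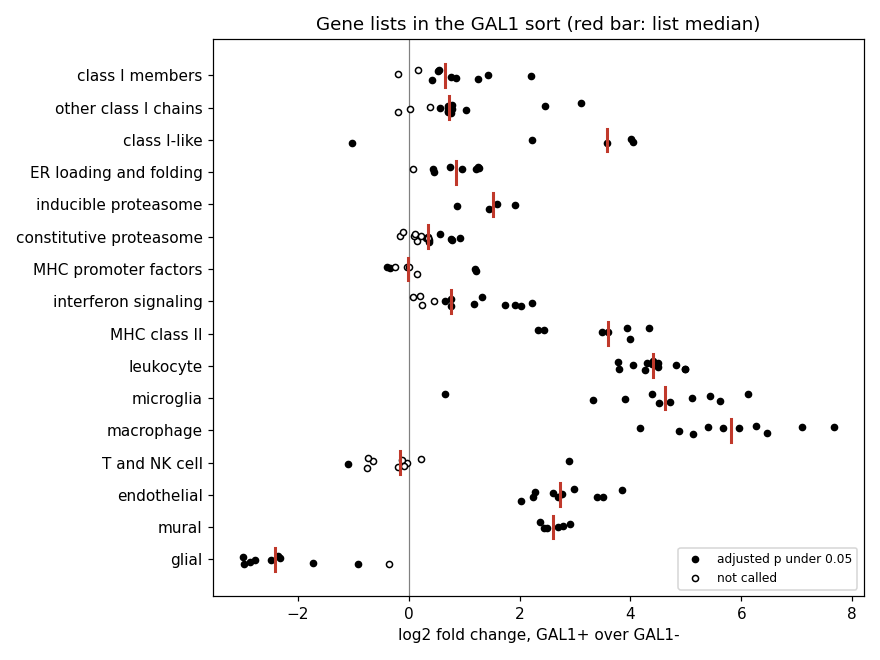
Log2 fold changes of GAL1+ over GAL1- cells (x axis) for the genes of each list (y axis), a point per gene and a red bar at the list median. The median is 0.66 for the class I genes, 5.81 for macrophage genes and -2.42 for glial genes.

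Among other genes with a mean log2 CPM of at least 3, the 5 most similar to the mean of the 10 over 12 libraries, which share 3 tumors, were *Jade2* (Pearson r = 0.974), *Gm20950* (0.971), *Gm11127* (0.969), *LOC118568331* (0.967) and *9930111J21Rik1* (0.967). *Gm11127* shares 75-base windows with *H2-D1* and *H2-T23*. *Jade2* was at 4.34, 4.23 and 5.13 in GAL1- and at 5.39, 5.45 and 5.82 in GAL1+ cells, without overlap.

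Promoter sequences, from 250 bases before to 50 bases after the gene start, came from RefSeq (GRCm38.p6) for 8 of the 10 genes, all but *Tap2* and *Nlrc5*. They were searched on both strands for GAAANNGAA (core of an interferon response element), GGGNNTTCC (like an NF-κB element), CCAAT (the Y box), TGACG (part of the X2 box) and TATAAA (the TATA box). GAAANNGAA was present for *B2m* and *H2-T23*, and in 8.6% of 27025 promoters (7.4% of the 12222 of measured genes). GGGNNTTCC was present for *H2-K1* and *H2-D1*, and in 5.7% of promoters (7.0% of those of measured genes). CCAAT was present for 7 of the 8, all but *Psmb8*, and in 37.9% of promoters (38.5% of those of measured genes). TGACG was present for *B2m*, *H2-D1*, *H2-K1*, *Psmb9* and *Tap1*, and in 21.0% of promoters (29.8% of those of measured genes). TATAAA was present for *B2m*, *H2-D1*, *H2-K1* and *Psmb8*, and in 14.2% of promoters (7.9% of those of measured genes). A match describes letters in the window and not a bound site.

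The promoters of *H2-K1* (chr17:34000298-34000597, minus strand) and *H2-D1* (chr17:35262844-35263143, plus strand) are shown because these genes moved together, and that of *B2m* (chr2:122147437-122147736, plus strand) because it encodes their partner. Capitals mark matches to the 5 motifs on either strand, and each sequence is from RefSeq, GRCm38.p6, in the direction of the gene.
*H2-K1*: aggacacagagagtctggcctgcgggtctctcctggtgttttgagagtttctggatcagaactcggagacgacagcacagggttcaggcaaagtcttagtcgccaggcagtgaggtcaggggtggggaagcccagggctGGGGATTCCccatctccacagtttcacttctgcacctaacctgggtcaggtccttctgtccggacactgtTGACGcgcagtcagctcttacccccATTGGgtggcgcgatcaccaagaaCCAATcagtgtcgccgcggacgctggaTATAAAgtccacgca
*H2-D1*: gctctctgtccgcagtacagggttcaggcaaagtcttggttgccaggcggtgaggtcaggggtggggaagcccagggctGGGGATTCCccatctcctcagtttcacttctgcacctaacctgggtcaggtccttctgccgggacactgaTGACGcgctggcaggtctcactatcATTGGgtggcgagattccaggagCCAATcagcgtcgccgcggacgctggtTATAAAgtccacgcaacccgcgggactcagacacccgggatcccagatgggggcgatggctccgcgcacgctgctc
*B2m*: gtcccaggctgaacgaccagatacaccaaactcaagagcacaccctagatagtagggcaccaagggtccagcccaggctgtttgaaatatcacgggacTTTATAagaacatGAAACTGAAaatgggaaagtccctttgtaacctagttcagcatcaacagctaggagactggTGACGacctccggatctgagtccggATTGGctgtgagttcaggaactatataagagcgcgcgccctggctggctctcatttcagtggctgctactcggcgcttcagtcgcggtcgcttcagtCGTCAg
Both heavy chain windows hold the GGGNNTTCC match first, at -111 from the start of *H2-K1* and at -171 from that of *H2-D1*. TGACG follows at -41 and -101, CCAAT on the other strand at -16 and -76, CCAAT at 9 and -53, and TATAAA at 36 and -26. RefSeq also gives a window for another start of *H2-K1*, from which the same matches lie at -125, -55, -30, -6 and 22. In *B2m* the GAAANNGAA match lies at -139, TGACG at -78 and CCAAT on the other strand at -53.

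*Tap1* and *Psmb9* lie head to head on chromosome 17, and their promoter windows share 275 bases. The *Tap1* window (chr17:34187306-34187605, plus strand, RefSeq, GRCm38.p6) is shown because the genes on either side of it differed in their calls, with capitals as above.
*Tap1*: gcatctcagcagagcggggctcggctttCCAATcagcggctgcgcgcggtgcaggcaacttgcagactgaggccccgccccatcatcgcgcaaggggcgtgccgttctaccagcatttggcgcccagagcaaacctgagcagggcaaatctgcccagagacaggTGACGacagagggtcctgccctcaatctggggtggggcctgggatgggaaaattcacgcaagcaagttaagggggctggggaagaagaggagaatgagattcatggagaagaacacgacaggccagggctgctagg
It holds CCAAT at -222 and TGACG at -86 from the start of *Tap1*. From GAL1- to GAL1+ cells *Tap1* differed by 0.33, 1.02 and 0.31 in tumors 3, 4 and 5 and *Psmb9* by 0.25, 0.59 and -0.35. Both were higher in GAL1+ cells of tumors 3 and 4, they parted in tumor 5, and the difference between the genes was not tested.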

How the data were processed

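The authors trimmed reads with fastp, aligned them with STAR to mm39, counted exons with featureCounts (multi-mapping reads as fractions), filtered genes on low CPM, and normalized by TMM and voom; tools and build are also named in the submitters' processing notes. They deposited log2 CPM for 18180 genes in 12 libraries. Reads were recovered from these by taking the lowest value of a library as voom's offset of 0.5 reads, and 41.3% to 59.2% of values came out within 0.01 of a whole read, so no count test was run.

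A model with terms for population and tumor was fitted to all 12 libraries with limma 3.58.1 in R 4.3.3, with a mean-variance trend, two-sided tests and Benjamini-Hochberg adjustment over all genes. The labels give the tumor of each library, which pairs them: deviations from population means correlated at 0.486 on average within tumors (lowest 0.14) and -0.306 between tumors. Simulated data served to test the fit, and the limits of that test were loosened after its outcomes were seen. The genes and lists were chosen with earlier results of these data known. Named are the 10 genes, the sort markers, the 5 most similar genes and, for each list the most abundant gene (left out for 2 lists) and the 2 highest and 2 lowest log2 fold changes of GAL1+ over GAL1- cells, with lists of 5 or fewer in full. *Psmb7*, and which genes' library values are printed outside the 10, were chosen after values were seen. Promoters (RefSeq) and transcript windows (GENCODE vM21) are on GRCm38, not mm39. The study describes the sorted cells as CD45- in one place, and its description of this sort names stains for EGFR, PDGFR and Galectin-1.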

Additional observations from a re-analysis of the deposited data

Results flagged for a closer look

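For 6 of the 10 genes the change across the GAL1 sort differed from that across the PDGFRA sort by the test of the difference itself (limma, adjusted p under 0.05). All 6 were above 0, and of all genes 26.2% were above 0 and 24.9% below 0 by this test. Across the PDGFRA sort itself 0 of all genes were called, so this is not a result independent of the GAL1 comparison, whose libraries it shares. The difference was 2.47 for *Tapbp* (2.20 in the GAL1 and -0.28 in the PDGFRA sort), 1.59 for *B2m* (1.43 and -0.15; 0.74 after quantile normalization) and 1.41 for *H2-T23* (1.25 and -0.16). It was 0.96 for *H2-K1* (0.85 and -0.10) but 0.15 after quantile normalization, where it was not called, nor was it without the tumor block. It was 0.66 for *Tap1* (0.55 and -0.11), which was not called without the tumor block, after quantile normalization (0.33), or with any tumor or the PDGFRA- library of tumor 5 left out. For *H2-D1* it was 0.86 (0.77 and -0.09) and turned to -0.27 after quantile normalization, and it was not called without the tumor block, tumor 4 or tumor 5. By the same test 12 of 12 leukocyte genes (median 4.80) and 10 of 10 macrophage genes (6.00) were higher and 8 of 10 glial genes lower (-2.75). Of 10 T and NK cell genes 1 was higher and 0 lower (median 0.04). The part of these markers in the result was not tested.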

How the results depend on the processing

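The settings tried were fits without the tumor block, to the libraries compared alone, without a mean-variance trend or with voom weights, another pseudocount, a filter on low values, quantile normalization, centring on the library median, a fold rule, and leaving out each tumor or the PDGFRA- library of tumor 5. Over the 29 calls of the 10 genes in 7 comparisons and 342 settings of them, 244 kept direction and call, 93 kept direction without the call and 5 reversed. The fold rule was left out of this tally, and it dropped further calls. *H2-T23*, *B2m* and *Tapbp* were called in GAL1+ over GAL1- cells under each setting. Fits to fewer libraries have fewer degrees of freedom; for the other settings the cause was not tested.

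The fit without the tumor block ignores that libraries are paired by tumor. For GAL1+ over GAL1-, 8 of the 10 genes were called, against 5 without the tumor block, 3 after quantile normalization, 5 with a fold change above 1.5 added to the rule and 5 to 8 with a tumor or the PDGFRA- library of tumor 5 left out, and these log2 changes turned sign: *H2-D1* was at -0.14 after quantile normalization, and the leave-outs gave *Nlrc5* -0.48 to 0.15 and *Psmb9* -0.05 to 0.42. For PDGFRA+ over PDGFRA-, the counts of calls were 0 under each of the 13 settings, and these log2 changes turned sign: *H2-K1* was at 0.07, *H2-D1* was at 0.13 and *B2m* was at 0.06 after quantile normalization, and the leave-outs gave *B2m* -0.38 to 0.01, *Nlrc5* -0.12 to 0.25, *Psmb8* -0.10 to 0.14 and *Psmb9* -0.21 to 0.11. For PDGFRA+ over GAL1+, 5 of the 10 genes were called, against 0 without the tumor block, 2 after quantile normalization, 3 with a fold change above 1.5 added to the rule and 1 to 5 with a tumor or the PDGFRA- library of tumor 5 left out, and 6900 of all genes were called, against 3154 without the tumor block and 2110 to 7677 with a tumor or the PDGFRA- library of tumor 5 left out, and these log2 changes turned sign: *H2-K1* was at 0.03 and *H2-D1* was at 0.20 after quantile normalization, and *Nlrc5* was at -0.03 after centring on the library median, and the leave-outs gave *Nlrc5* -0.21 to 0.33. For PDGFRA- over GAL1+, 3 of the 10 genes were called, against 0 without the tumor block, 0 in a fit to the libraries compared alone, 0 after quantile normalization, 5 after centring on the library median and 0 to 3 with a tumor or the PDGFRA- library of tumor 5 left out, and 3652 of all genes were called, against 725 without the tumor block, 1893 in a fit to the libraries compared alone and 0 to 5837 with a tumor or the PDGFRA- library of tumor 5 left out, and these log2 changes turned sign: *H2-D1* was at 0.07 and *Psmb9* was at -0.01 after quantile normalization, and *Nlrc5* was at -0.07 and *Psmb9* was at -0.13 after centring on the library median, and the leave-outs gave *Nlrc5* -0.24 to 0.37 and *Psmb9* -0.21 to 0.17. For PDGFRA+ over GAL1-, 2 of the 10 genes were called, against 0 without the tumor block, 4 in a fit to the libraries compared alone, 1 without a mean-variance trend, 1 after centring on the library median, 1 with a fold change above 1.5 added to the rule and 0 to 2 with a tumor or the PDGFRA- library of tumor 5 left out, and 1504 of all genes were called, against 612 without the tumor block, 3386 in a fit to the libraries compared alone and 0 to 1886 with a tumor or the PDGFRA- library of tumor 5 left out, and these log2 changes turned sign: *Psmb9* was at -0.00028 after centring on the library median, and the leave-outs gave *Psmb9* -0.09 to 0.32. For PDGFRA- over GAL1-, 5 of the 10 genes were called, against 0 without the tumor block, 1 in a fit to the libraries compared alone, 2 after quantile normalization, 3 after centring on the library median, 3 with a fold change above 1.5 added to the rule and 1 to 3 with a tumor or the PDGFRA- library of tumor 5 left out, and 4200 of all genes were called, against 1444 without the tumor block, 1328 in a fit to the libraries compared alone and 920 to 3287 with a tumor or the PDGFRA- library of tumor 5 left out, and these log2 changes turned sign: *H2-D1* was at -0.07 after quantile normalization, and the leave-outs gave *Nlrc5* -0.41 to 0.09. For the difference between the GAL1 and PDGFRA sorts, 6 of the 10 genes were called, against 3 without the tumor block and 3 after quantile normalization, and 9290 of all genes were called, against 5757 to 8142 with a tumor or the PDGFRA- library of tumor 5 left out, and these log2 changes turned sign: *H2-D1* was at -0.27 after quantile normalization, and the leave-outs gave *Nlrc5* -0.74 to 0.12.

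Quantile normalization moved the median of all genes to -0.15 in PDGFRA+ over GAL1- and -0.12 in PDGFRA- over GAL1- cells, and centring moved it to -0.15 in PDGFRA+ over GAL1+, -0.10 in PDGFRA- over GAL1+ and -0.13 in PDGFRA+ over GAL1- cells. The share of calls that were higher was 55.1% in PDGFRA+ over GAL1+ cells (40.8% after centring), 65.6% in PDGFRA- over GAL1+ cells (46.9% after centring) and 70.2% in PDGFRA- over GAL1- cells (47.2% after quantile normalization and 51.4% after centring).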
